A study of Mus musculus with 6 samples.

Results

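Chromatin accessibility was examined at 10 genes, *Trp53*, which codes for p53, the p53 inhibitors *Mdm2* and *Mdm4*, and 7 classic p53 target genes (*Cdkn1a*, *Ccng1*, *Gadd45a*, *Btg2*, *Bbc3*, *Sesn1* and *Sesn2*), in GL261 mouse glioma cells at 3 oxygen levels. ATACseq, in which a transposase cuts open DNA so that fragments pile up over accessible regions, was carried out in 2 replicate libraries each of cells at 21% O2 (normoxia), at 1% O2 for 16 h and at <0.1% O2 for 16 h, 6 libraries in all. All libraries came from 1 line of GL261 that stably carried the pEGFP-N1 plasmid, and the cells were fixed with formaldehyde before transposition. GL261 is known to carry a point mutation in *Trp53*, which a list of peaks cannot show, and neither p53 protein nor RNA was measured in these libraries. A peak belonged to a member when it lay in the gene's body or within 20 kb of it in GENCODE M21 (mm10), and it was called a promoter peak when it lay within 2000 bp of an annotated start site of that gene. By this rule the 10 genes held 55 of the 52358 regions found in any of the 6 lists, 49 of the 41308 consensus peaks, which both replicates of a condition share, and 39 of the 28432 consensus peaks present in all 6 libraries. Of these 39 peaks, 12 were promoter peaks of a member, 7 lay at a start site of a neighbouring gene only, and 20 had no start site within 2000 bp and are called distal peaks.

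The p53 protein is a transcription factor that is stabilised by stresses such as DNA damage and severe hypoxia and binds a response element made of a pair of decamers, each with a CATG-like core. In unstressed cells *Mdm2*, a ubiquitin ligase that p53 itself induces, and its relative *Mdm4* hold p53 in check. The targets examined act in cell cycle arrest (*Cdkn1a*, *Btg2*, *Ccng1*, *Gadd45a*), in apoptosis (*Bbc3*, which codes for PUMA) and in the control of metabolism and oxidative stress (*Sesn1* and *Sesn2*).

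The sequences by which p53 recognises these loci were searched first. A full p53 site, 20 bases with both decamers side by side, both cores intact and at most 3 mismatches to the consensus, was found in 6 of the 39 member peaks (15.38%) and in 534 of all 28432 peaks (1.88%), where the median peak lengths were 912 and 826 bp. Within 1000 bp centred on the summit, which removes the difference in length, the shares were 4 of 39 (10.26%) and 657 of 28432 (2.31%). The genes were chosen as p53 targets, so this is a description of the loci and was not tested. The 6 sites are shown on the plus strand of GRCm38, with the 20 bases of the match in capitals and 5 flanking bases on each side in lower case.
Trp53 promoter peak, chr11:69580284-69580303: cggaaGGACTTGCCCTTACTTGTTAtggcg
Mdm2 distal peak, chr10:117717736-117717755: tgcttGGACATGTTTGTACATGTTTcctcc
Trp53cor1 promoter peak in the Cdkn1a locus, chr17:29079039-29079058: accgaAGGCAAGCCCGGGCAAGGCCggcag
Hmmr and Nudcd2 promoter peak in the Ccng1 locus, chr11:40734156-40734175: caaggTAGCAAGCCAGGGCTTGTCCcgagt
Ccng1 promoter peak, chr11:40754936-40754955: ggcgcAGACTAGCCCGGGCTTGCGTtccgg
Bbc3 promoter peak, chr7:16309486-16309505: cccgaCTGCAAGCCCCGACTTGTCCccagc
The *Mdm2*, *Trp53cor1* and *Ccng1* sites had 1 mismatch, the *Hmmr* and *Nudcd2* site had 2, and the *Trp53* and *Bbc3* sites had 3. The *Trp53cor1* site lay in an exon of that noncoding RNA gene and the other 5 lay in no exon. The *Mdm2* site lay 69 bp and the *Trp53cor1* site 7 bp from the summit of its peak, and the others 424 to 962 bp from theirs. A match to the letters does not show that p53 was bound.

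The libraries held 33006 to 43554 peaks, and their mean genome coverage, recovered from the lists, was 2.16 and 2.36 fragments in normoxia, 2.93 and 2.99 at 1% O2 and 3.35 and 3.18 at <0.1% O2. Each hypoxic library was deeper than both normoxic ones. The measure used below is the scaled pileup, the number of fragments over the summit of a peak divided by a factor that gives every library the same median over the 28432 peaks. A change is therefore relative to the typical peak, which itself moved by 0.17 at 1% O2 and by -0.17 at <0.1% O2 on the log2 scale when libraries were scaled by genome coverage instead. The fold over local background, which the authors deposited, divides the fragments at a summit by the level around the peak. Most calls of the scaled pileup were not calls in this fold. Many rises at <0.1% O2 were not calls when libraries were scaled by genome coverage, so these values are given beside the results. Promoter peaks were present in all 6 libraries at 7 of 7 glial and glioma genes (*Nes*, *Vim*, *Sox2*, *Olig2*, *Cd44*, *S100b* and *Gfap*) and at 0 of 4 leukocyte genes, 3 of which had none in any library and 1 of which, *Cd68*, had one in 1 library. *Pecam1* had a promoter peak in 5 libraries and *Krt8* and *Syt1* in 6, while the other markers of endothelial, epithelial and neuronal cells, *Cdh5*, *Epcam* and *Rbfox3*, had none. Of 8 genes known to be induced by hypoxia, 7 had a promoter peak in all libraries, and its log2 change at <0.1% O2 ran from -0.12 at *Car9* to 0.93 at *Pdk1*. In a bulk library a change in every cell and a change in the share of cells that are open cannot be told apart. The labels do not say that the replicates were separate cultures, so the p-values measure only the spread between these libraries.

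By scaled pileup the outer promoter peak of *Trp53* rose at both hypoxic levels, and a smaller peak inside its first intron fell at 1% O2. The former calls depended on the scale. The outer peak (chr11:69578998-69580550) covers the start of *Trp53* and that of the gene on the opposite strand, *Wrap53*, a telomerase and Cajal body factor. Its summits in the 6 libraries lay 927 to 1031 bp from the nearest *Trp53* start and 4 to 108 bp from a *Wrap53* start, so its values belong to the *Wrap53* side of the peak and not to the *Trp53* start itself. It had scaled pileups of 125 and 136 fragments in normoxia, 160 and 161 at 1% O2 and 175 and 189 at <0.1% O2. The 3 pairs did not overlap, and both hypoxic pairs lay above normoxia. The log2 change was 0.30 ± 0.12 (SE, n = 2 libraries per level) at 1% O2, with an adjusted p of 0.0392, and 0.48 ± 0.12 at <0.1% O2, with an adjusted p of 8.18e-04 (limma, adjusted by Benjamini-Hochberg over all 28432 peaks, as are all adjusted p-values below). The call at 1% O2 was lost without 21% O2 replicate 1 (0.24), without 1% O2 replicate 1 (0.30) and without 1% O2 replicate 2 (0.30). It was also lost after a trend with GC content was subtracted (0.26, adjusted p = 0.0675). Neither level passed with libraries scaled by genome coverage (0.47 and 0.31, adjusted p = 0.121 and 0.281) or in the fold over local background (0.13 and 0.215, adjusted p = 0.525 and 0.253). The p53 site shown for this peak lay 66 bp upstream of the *Trp53* start and 962 bp from the summit.

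The intronic peak of *Trp53* (chr11:69581193-69581602), also within 2000 bp of a *Wrap53* start, held 75.2 and 87.6 fragments in normoxia, 59.3 and 60.0 at 1% O2 and 63.8 and 60.1 at <0.1% O2. Both hypoxic pairs lay below normoxia. It fell by 0.44 on the log2 scale at 1% O2 (SE 0.17, adjusted p = 0.0355), a call that was lost without 21% O2 replicate 2 (-0.33), without 1% O2 replicate 1 (-0.44), without 1% O2 replicate 2 (-0.45) and with libraries scaled by genome coverage (-0.28, adjusted p = 0.44). At <0.1% O2 the change was -0.39 ± 0.17 and did not pass the test (adjusted p = 0.0536), but did without 21% O2 replicate 1 (-0.50), after quantile normalization (-0.42, adjusted p = 0.0378) and in the fold over local background (-0.62, adjusted p = 0.018). In that fold it also passed at 1% O2 (-0.55, adjusted p = 0.0403), and it was the 1 member promoter called lower there at either level. By that fold it stood low among all peaks, at percentiles of 5.17 and 8.94 in normoxia and 0.83 to 1.73 in hypoxia.

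The largest rise among the distal peaks at <0.1% O2 was also at *Trp53*. A peak 15.8 kb upstream of the *Trp53* start, in an intron of *Wrap53* (chr11:69564233-69564883), held 35.5 and 43.3 fragments in normoxia, 76.9 and 67.1 at 1% O2 and 93.5 and 93.9 at <0.1% O2, and the 3 pairs did not overlap. It rose 1.83-fold at 1% O2 (log2 0.88 ± 0.17, adjusted p = 1.37e-04) and 2.39-fold at <0.1% O2 (log2 1.26 ± 0.17, adjusted p = 2.75e-07). Repeat-masked bases made up 55% of the 200 bp at its centre, and the comprehensive GENCODE annotation places a start of a transcript of another gene within 2000 bp of it. The promoter peak of *Atp1b2*, a subunit of the sodium pump, which lies beyond the 3′ end of *Trp53* (chr11:69605621-69606337), rose likewise, from 55.3 and 43.3 fragments in normoxia to 96.1 and 101 at 1% O2 and 82.1 and 101 at <0.1% O2. Its log2 changes were 1.01 ± 0.17 (adjusted p = 8.89e-06) and 0.90 ± 0.17 (adjusted p = 2.80e-05). Both peaks also passed at both levels with libraries scaled by genome coverage and in the fold over local background. The remaining peak of the locus, in an exon of *Atp1b2*, had log2 changes of -0.20 and -0.06 that did not pass the test.

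**Figure D1:**
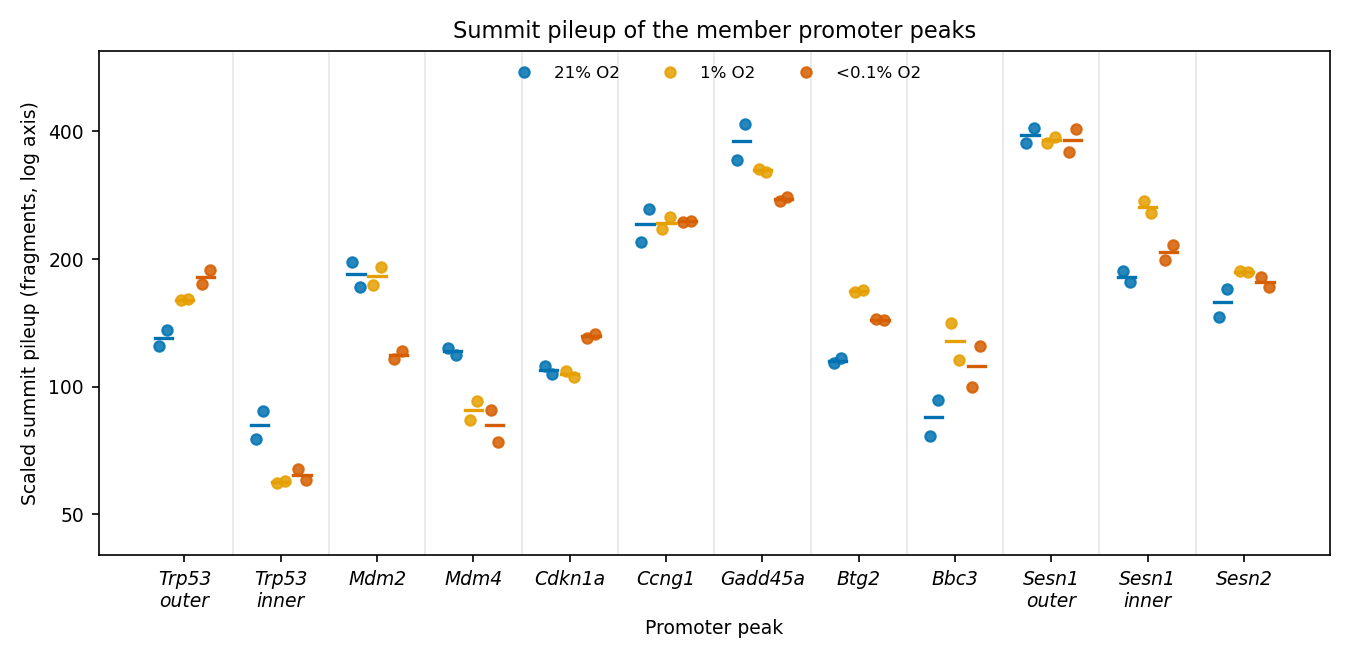
Scaled summit pileup (fragments, log axis) of the 12 member promoter peaks in each library; points are the 2 libraries of a level, bars their means, and "outer" and "inner" mark the outer and the inner promoter peak of *Trp53* and *Sesn1*. At the *Mdm2* promoter the <0.1% O2 libraries, at 116 and 121, sit below all 4 others, which lie between 172 and 197.

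The promoter peaks of both inhibitors of p53 fell at <0.1% O2 by scaled pileup, and neither fall passed in the fold over local background. The *Mdm2* promoter peak (chr10:117710020-117711078) held 197 and 172 fragments in normoxia, 174 and 192 at 1% O2 and 116 and 121 at <0.1% O2. The 1% O2 libraries lay inside the normoxic range and the <0.1% O2 libraries below all others. The log2 change was -0.01 ± 0.12 at 1% O2 (adjusted p = 0.944) and -0.63 ± 0.12 at <0.1% O2 (adjusted p = 3.00e-05), a fall to 0.645 times the normoxic level. The contrast between the hypoxic levels, <0.1% against 1% O2, was -0.62 ± 0.12 (adjusted p = 1.76e-04), and it kept its sign and its call whichever of the 6 libraries was left out. After a trend with GC content was subtracted the fall against normoxia was -0.300 (adjusted p = 0.0339) and the contrast between the hypoxic levels -0.35 (adjusted p = 0.046). In the fold over local background they were -0.16 and -0.22 and did not pass the test (adjusted p = 0.347 and 0.281).

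The single promoter peak of *Mdm4* (chr1:133025009-133026025), at an inner start 5.0 kb into the gene that the predicted gene *Gm29257* shares, held 123 and 119 fragments in normoxia, 83.3 and 92.7 at 1% O2 and 88.3 and 73.9 at <0.1% O2. Both hypoxic pairs lay below normoxia and overlapped each other. The log2 change was -0.46 ± 0.14 at 1% O2 (adjusted p = 0.0107), a call that was lost without 1% O2 replicate 1 (-0.39) and with libraries scaled by genome coverage (-0.296, adjusted p = 0.384), and -0.59 ± 0.14 at <0.1% O2 (adjusted p = 0.00102). Neither passed in the fold over local background (-0.13 and -0.19, adjusted p = 0.448 and 0.216). Further upstream, the promoter peak of *Pik3c2b*, a phosphoinositide kinase, had log2 changes of -0.35 ± 0.20 at 1% O2 (adjusted p = 0.18) and -0.58 ± 0.20 at <0.1% O2 (adjusted p = 0.0179). The latter call was lost without 21% O2 replicate 1 (-0.39), without <0.1% O2 replicate 1 (-0.59), without <0.1% O2 replicate 2 (-0.57) and after the GC trend was subtracted (-0.26, adjusted p = 0.315). It also passed in the fold over local background (-0.57, adjusted p = 0.0245).

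Of the 5 distal peaks at the inhibitors, 1 passed the test, as a rise at <0.1% O2, where 31.9% of all distal peaks rose. It lay 10.9 kb upstream of *Mdm2* (chr10:117721492-117721909) and held 80.8 and 90.8 fragments in normoxia, 102 and 114 at 1% O2 and 121 and 110 at <0.1% O2. Its log2 change was 0.33 ± 0.14 at 1% O2 (adjusted p = 0.0602) and 0.43 ± 0.14 at <0.1% O2 (adjusted p = 0.0113). The second of these calls was lost without 21% O2 replicate 1 (0.34) and without <0.1% O2 replicate 1 (0.36), and the first passed without 21% O2 replicate 2 (0.41) and after the GC trend was subtracted (0.36). The second was also lost with libraries scaled by genome coverage (0.26), in the fold over local background (0.38) and after the GC trend was subtracted (0.275). The *Mdm2* distal peak that holds the p53 site, 7.3 kb upstream of the gene (chr10:117717587-117718537), had 90.8 and 103 fragments in normoxia, 76.1 and 81.2 at 1% O2 and 78.7 and 87.6 at <0.1% O2. Both hypoxic pairs lay below normoxia, but the log2 changes of -0.30 ± 0.15 and -0.22 ± 0.15 did not pass the test (adjusted p = 0.119 and 0.233).

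Among the cell cycle targets the promoters went in different directions. At *Cdkn1a*, which codes for the kinase inhibitor p21, the promoter peak (chr17:29093542-29095681), shared with the gene *AC167363.2*, held 112 and 107 fragments in normoxia, 109 and 105 at 1% O2 and 130 and 133 at <0.1% O2. Its summits lay 1616 to 1653 bp from the nearest *Cdkn1a* start and 936 to 973 bp from the start of *AC167363.2*. The <0.1% O2 pair lay above the other 4 libraries, which overlapped. The log2 changes of -0.03 ± 0.13 and 0.27 ± 0.13 did not pass the test (adjusted p = 0.863 and 0.0871). The second did after quantile normalization (0.32, adjusted p = 0.0416) and after the GC trend was subtracted (0.51, adjusted p = 0.00124). Upstream of *Cdkn1a*, both promoter peaks of *Trp53cor1*, the gene of a long noncoding RNA that p53 is known to induce, rose at <0.1% O2 by scaled pileup. The peak with the p53 site (chr17:29078318-29079306) went from 85.1 and 91.9 fragments to 101 and 92.7 at 1% O2 and 127 and 116 at <0.1% O2, a log2 change of 0.46 ± 0.14 at <0.1% O2 (adjusted p = 0.00648). The other (chr17:29080766-29082274) went from 89.4 and 101 to 106 and 98.9 and then to 128 and 123, a log2 change of 0.41 ± 0.14 at <0.1% O2 (adjusted p = 0.0127). At 1% O2 the changes of 0.13 and 0.11 did not pass the test (adjusted p = 0.491 and 0.557). The call of the first was lost without <0.1% O2 replicate 1 (0.39), and that of the second without 21% O2 replicate 1 (0.32) and without <0.1% O2 replicate 1 (0.38). Both calls were lost with libraries scaled by genome coverage (0.29 and 0.24, adjusted p = 0.334 and 0.436) and in the fold over local background (0.15 and 0.11, adjusted p = 0.527 and 0.638).

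*Ccng1*, which codes for cyclin G1, a regulator of *Mdm2* activity, kept a steep promoter peak at all 3 oxygen levels. Its peak (chr11:40754775-40755686), which holds a p53 site 366 bp into the gene, had 220 and 263 fragments in normoxia, 236 and 252 at 1% O2 and 245 and 246 at <0.1% O2. Both hypoxic pairs lay inside the normoxic range, with log2 changes of 0.02 ± 0.11 and 0.03 ± 0.11 (adjusted p = 0.911 and 0.84). By fold over local background it stood at percentile 96.5 or above in each of the 6 libraries. A distal peak 11.6 kb beyond the start of *Ccng1* (chr11:40743391-40744008) changed at 1% O2, from 90.8 and 85.4 fragments in normoxia to 43.3 and 48.6, and stood at 87.4 and 81.2 at <0.1% O2. It fell by 0.94 on the log2 scale at 1% O2 (SE 0.16, adjusted p = 2.31e-05), differed by -0.06 ± 0.16 from normoxia at <0.1% O2 (adjusted p = 0.773), and was higher at <0.1% than at 1% O2 by 0.88 (adjusted p = 1.63e-04). The fall at 1% O2 also passed in the fold over local background (-0.36, adjusted p = 0.0391). The shared promoter peak of *Hmmr*, which codes for a hyaluronan receptor that acts in mitosis, and *Nudcd2* (chr11:40733068-40734232) fell from 279 and 287 fragments to 189 and 195 at 1% O2 and 181 and 182 at <0.1% O2. Its log2 changes were -0.56 ± 0.10 (adjusted p = 5.16e-05) and -0.64 ± 0.10 (adjusted p = 3.67e-06). By fold over local background the first was -0.09 (adjusted p = 0.602) and the second turned to 0.14 (adjusted p = 0.348). With libraries scaled by genome coverage the first did not pass (-0.39, adjusted p = 0.204).

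*Gadd45a*, a DNA damage response gene, had the tallest promoter peak of the cell cycle targets, and it fell at <0.1% O2 by scaled pileup but did not pass in the fold over local background. The peak (chr6:67035614-67037816), also at the start of the noncoding gene *E230016M11Rik*, held 342 and 417 fragments in normoxia, 326 and 321 at 1% O2 and 274 and 281 at <0.1% O2. The 3 pairs did not overlap. The log2 change was -0.22 ± 0.10 at 1% O2 (adjusted p = 0.0774), which passed without 21% O2 replicate 1 (-0.37) and after the GC trend was subtracted (-0.255), and -0.45 ± 0.10 at <0.1% O2 (adjusted p = 3.53e-04). By fold over local background the change at <0.1% O2 was -0.044 (adjusted p = 0.798). The other ranked peak of the locus, at the start of the small RNA gene *Gm25260*, had log2 changes of -0.37 and -0.13 that did not pass the test.

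*Btg2*, an antiproliferative gene, lay in a region where most peaks rose. Its promoter peak (chr1:134078861-134079752) held 114 and 117 fragments in normoxia, 167 and 170 at 1% O2 and 144 and 144 at <0.1% O2. The 3 pairs did not overlap, with 1% O2 highest. The log2 change was 0.55 ± 0.12 at 1% O2 (adjusted p = 3.60e-04) and 0.32 ± 0.12 at <0.1% O2 (adjusted p = 0.0238), the latter lost without 21% O2 replicate 1 (0.30), without <0.1% O2 replicate 1 (0.32) and without <0.1% O2 replicate 2 (0.33). The call at <0.1% O2 was also lost with libraries scaled by genome coverage (0.16, adjusted p = 0.626). In the fold over local background the changes at the hypoxic levels were -0.06 and -0.12. The local background around this promoter stood at 3.26 and 3.95 times the genome coverage in normoxia, 6.35 and 4.81 times at 1% O2 and 4.53 and 4.13 times at <0.1% O2.

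Of the 5 ranked distal peaks around *Btg2*, 3 rose at 1% O2 and 4 at <0.1% O2, where 19.2% and 31.9% of all distal peaks rose. The peak 17.9 kb beyond the start (chr1:134060846-134061501) went from 70.9 and 76.8 fragments to 161 and 174 at 1% O2 and 152 and 132 at <0.1% O2, a 2.27-fold rise at 1% O2 (log2 1.18 ± 0.13, adjusted p = 5.71e-09) and a 1.92-fold rise at <0.1% O2 (log2 0.94 ± 0.13, adjusted p = 2.51e-07). The peak 15.8 kb beyond the start (chr1:134062952-134063661) rose by 0.57 ± 0.16 (adjusted p = 0.00425; 0.52 and not called without 1% O2 replicate 1) and by 0.71 ± 0.16 (adjusted p = 3.51e-04). The peak 13.7 kb beyond it (chr1:134065158-134065706) rose at <0.1% O2 by 0.58 ± 0.12 (adjusted p = 1.95e-04) and differed from normoxia by 0.09 ± 0.12 at 1% O2 (adjusted p = 0.595). Upstream, the peak at 12.9 kb (chr1:134091761-134092267) went from 44.0 and 32.4 fragments to 60.1 and 67.1 at 1% O2 and 92.6 and 63.3 at <0.1% O2, with log2 changes of 0.75 ± 0.20 (adjusted p = 0.00277; 0.53 and not called without 21% O2 replicate 2) and 1.02 ± 0.20 (adjusted p = 5.85e-05). In <0.1% O2 replicate 1 a single called peak covered this peak and its neighbour at 14.0 kb, so the value of 92.6 belongs to both, and without that library the change was 0.75. The promoter peak of the predicted gene *Gm38140*, 20.2 kb upstream, rose by 0.43 ± 0.11 (adjusted p = 0.00291) and 0.50 ± 0.11 (adjusted p = 5.14e-04).

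Around *Btg2* the fragments over the summits rose, and so did the local background. The 3 peaks beyond the gene's 3′ end had nearly the same background, 5.21, 5.25 and 5.26 times the genome coverage in 21% O2 replicate 1. How much of this background came from the peaks' own fragments was not tested, so the fold is no separate check there. At the 3 peaks beyond the gene's 3′ end the local background rose from 5.21 to 6.19 times the genome coverage in normoxia to 9.13 to 10.6 times at 1% O2 and 7.57 to 9.23 times at <0.1% O2. In the fold over that background the peak 13.7 kb beyond the start fell by 0.71 at 1% O2 (adjusted p = 0.0192), the one at 15.8 kb differed from normoxia by -0.25 and -0.05, and no ranked peak of the *Btg2* locus passed the test as higher. With libraries scaled by genome coverage the calls at <0.1% O2 were lost at the peaks 15.8 kb (0.54, adjusted p = 0.0552) and 13.7 kb (0.42, adjusted p = 0.138) beyond the start and at the *Gm38140* promoter (0.33, adjusted p = 0.252).

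*Bbc3*, the apoptosis target, had a promoter peak that rose at both levels by scaled pileup. The peak (chr7:16309276-16310465), which holds a p53 site 684 bp from its summit, had 76.6 and 93.0 fragments in normoxia, 141 and 116 at 1% O2 and 99.6 and 125 at <0.1% O2. Both hypoxic pairs lay above normoxia and overlapped each other. The log2 change was 0.60 ± 0.15 at 1% O2 (adjusted p = 0.00133) and 0.40 ± 0.15 at <0.1% O2 (adjusted p = 0.0222). The first call was lost without 1% O2 replicate 1 (0.45), and the second without 21% O2 replicate 1 (0.26) and without <0.1% O2 replicate 2 (0.24). The second was also lost with libraries scaled by genome coverage (0.235, adjusted p = 0.447). Both were lost in the fold over local background (0.27 and 0.255, adjusted p = 0.32 and 0.309). In normoxia this was the shallowest of the 12 promoter peaks against its surroundings, at fold percentiles of 0.0985 and 0.746 in normoxia and 0.798 to 2.50 in hypoxia.

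Of the 4 ranked distal peaks around *Bbc3*, 2 rose at each level, where 19.2% of all distal peaks rose at 1% O2 and 31.9% at <0.1% O2, so counts this small do not set the locus apart. The peak within the gene's intron (chr7:16312516-16314329) held 125 and 120 fragments in normoxia, 168 and 148 at 1% O2 and 168 and 167 at <0.1% O2, and rose by 0.37 ± 0.12 (adjusted p = 0.0132; 0.28 and not called without 1% O2 replicate 1) and 0.45 ± 0.12 (adjusted p = 0.00187). In the comprehensive GENCODE annotation this peak lies at a further *Bbc3* start. The peak 8.6 kb upstream (chr7:16299539-16300083) rose at 1% O2 by 0.39 ± 0.12 (adjusted p = 0.00874; 0.33 and not called without 1% O2 replicate 2) and changed by 0.19 ± 0.12 at <0.1% O2 (adjusted p = 0.185). The peak in an intron of *Sae1*, a subunit of the SUMO activating enzyme (chr7:16326097-16326660), rose at <0.1% O2 by 0.43 ± 0.16 (adjusted p = 0.0281), a call lost without 21% O2 replicate 1 (0.26), without <0.1% O2 replicate 1 (0.44) or without <0.1% O2 replicate 2 (0.43). Its change of 0.31 ± 0.16 at 1% O2 did not pass the test (adjusted p = 0.14) but did without 21% O2 replicate 2 (0.48) or 1% O2 replicate 1 (0.55). None of the calls at these 3 peaks passed with libraries scaled by genome coverage or in the fold over local background. The peak 8.6 kb upstream passed at <0.1% O2 after the GC trend was subtracted (0.64, adjusted p = 3.50e-05).

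The sestrins are stress proteins that restrain mTORC1, and *Sesn1* had 2 promoter peaks that behaved differently. The outer one (chr10:41809412-41810794), shared with *Cep57l1* on the opposite strand, was among the tallest of the member peaks and held 376 and 408 fragments in normoxia, 376 and 388 at 1% O2 and 357 and 405 at <0.1% O2. The levels overlapped, and the log2 changes were -0.04 ± 0.10 at both levels (adjusted p = 0.804 and 0.75). The inner one (chr10:41887061-41887956), at the start of shorter transcripts 77.6 kb into the gene, held 187 and 176 fragments in normoxia, 274 and 257 at 1% O2 and 199 and 216 at <0.1% O2. The 3 pairs did not overlap, with 1% O2 highest. It rose by 0.55 ± 0.11 at 1% O2 (adjusted p = 8.73e-05) and changed by 0.19 ± 0.11 at <0.1% O2 (adjusted p = 0.129). The latter passed after quantile normalization (0.25) and after the GC trend was subtracted (0.44). The change at 1% O2 in the fold over local background was -0.017 (adjusted p = 0.923). The contrast between the hypoxic levels was -0.35 ± 0.11 (adjusted p = 0.0125), lost without 1% O2 replicate 1 (-0.31) and without <0.1% O2 replicate 1 (-0.295) and after the GC trend was subtracted (-0.16, adjusted p = 0.349), and was -0.04 in the fold over local background.

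The one ranked distal peak of *Sesn1*, in its intron (chr10:41866131-41866984), held 63.8 and 37.9 fragments in normoxia, 31.2 and 36.2 at 1% O2 and 56.8 and 54.9 at <0.1% O2. It fell by 0.55 on the log2 scale at 1% O2 (SE 0.22, adjusted p = 0.0454) and changed by 0.18 ± 0.22 at <0.1% O2 (adjusted p = 0.511). The normoxic libraries stood far apart here, and the change at 1% O2 was -0.17 without 21% O2 replicate 1 and -0.92 without 21% O2 replicate 2. The call was also lost without 1% O2 replicate 1 (-0.44), without 1% O2 replicate 2 (-0.65) and without either <0.1% O2 library (-0.55). It did not pass with libraries scaled by genome coverage, in the fold over local background or after the GC trend was subtracted (-0.38, -0.40 and -0.50).

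At *Sesn2* the promoter peak (chr4:132509643-132510731), shared with *Gm12981*, held 146 and 170 fragments in normoxia, 187 and 186 at 1% O2 and 182 and 172 at <0.1% O2. Both hypoxic pairs lay above normoxia, but the log2 changes of 0.25 ± 0.11 and 0.17 ± 0.11 did not pass the test (adjusted p = 0.0838 and 0.227); the first did without 21% O2 replicate 2 (0.36), after quantile normalization (0.34, adjusted p = 0.0148) and after the GC trend was subtracted (0.305), and the second also did in the last setting (0.46). Both ranked distal peaks, just upstream, rose at <0.1% O2 by scaled pileup. The nearer, at 3.3 kb (chr4:132513488-132514162), went from 126 and 129 fragments to 132 and 137 at 1% O2 and 176 and 210 at <0.1% O2, with log2 changes of 0.08 ± 0.12 (adjusted p = 0.648) and 0.59 ± 0.12 (adjusted p = 1.05e-04). The farther, at 4.9 kb (chr4:132514884-132515957), went from 142 and 158 to 199 and 209 and then 234 and 221, with log2 changes of 0.45 ± 0.11 (adjusted p = 0.00136) and 0.60 ± 0.11 (adjusted p = 2.20e-05). At <0.1% O2 neither passed with libraries scaled by genome coverage (0.43 and 0.44, adjusted p = 0.125 and 0.11) or in the fold over local background (0.24 and 0.024, adjusted p = 0.351 and 0.927). In that fold the farther peak also did not pass at 1% O2 (0.13, adjusted p = 0.579).

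Over the 12 member promoter peaks, 2 fell and 4 rose at 1% O2, where 22.0% of all 12959 ranked promoter peaks fell and 12.9% rose. At <0.1% O2, 3 fell (*Mdm2*, *Mdm4* and *Gadd45a*) and 3 rose (the outer *Trp53* peak, *Btg2* and *Bbc3*), against 38.5% falling and 13.8% rising among all promoter peaks. The summits of that *Trp53* peak lay near a *Wrap53* start and not at the *Trp53* start. The median log2 change of the 12 was 0.0 at 1% O2 and 0.1 at <0.1% O2, beside -0.07 and -0.19 over all promoter peaks. The split of falls and rises depended on the scale. With libraries scaled by genome coverage it was 0 and 3 at 1% O2, beside 3.18% and 9.03% of all promoter peaks. At <0.1% O2 it was 3 and 0, beside 34.6% and 2.89%. After a trend with GC content was subtracted it was 3 and 4, beside 20.5% and 15.2%, and 3 and 6, beside 26.6% and 20.6%. By fold over local background it was 1 and 0, beside 1.67% and 1.66%, and 1 and 0, beside 9.55% and 3.07%. The 1 promoter lower in that fold was the inner *Trp53* peak at both levels. None of the 3 falls and 3 rises called by pileup at <0.1% O2 was called in it. The count of promoters that rose at <0.1% O2 was 1 without 21% O2 replicate 1 or without <0.1% O2 replicate 2 and 2 without <0.1% O2 replicate 1. The count that fell at 1% O2 was 0 without 1% O2 replicate 1 and 1 without 21% O2 replicate 2 or without 1% O2 replicate 2, and the count that rose at 1% O2 was 2 without 1% O2 replicate 1. Of the 7 promoter peaks of neighbouring genes, 1 fell and 2 rose at 1% O2, and 2 fell and 4 rose at <0.1% O2, where the shares of all promoter peaks are those given above. With libraries scaled by genome coverage these counts were 0 and 2 at 1% O2 and 2 and 1 at <0.1% O2. By fold over local background they were 0 and 1, and 1 and 1, where the 1 that rose was the *Atp1b2* promoter at both levels.

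**Figure D2:**
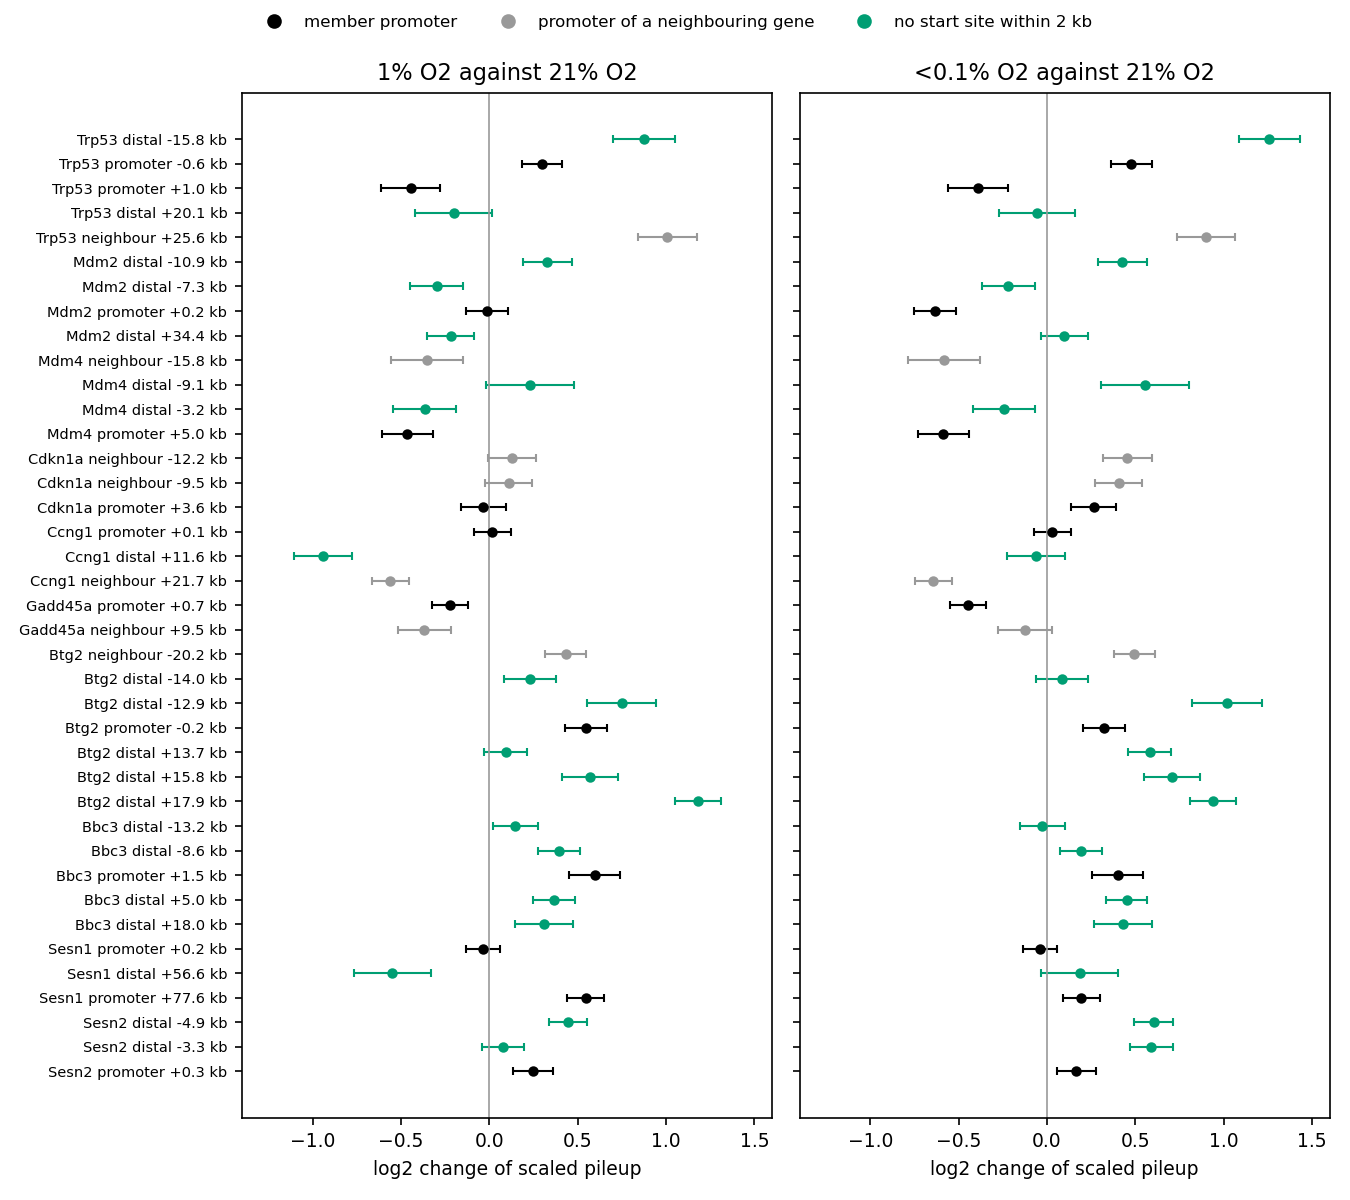
Log2 change of the scaled pileup at 1% O2 (left) and <0.1% O2 (right) against 21% O2 for the 39 ranked peaks of the member loci, labelled by locus and by distance of the peak centre from the outermost start of the gene; bars are the SE of the limma fit, and black, grey and green mark member promoters, promoters of neighbouring genes and distal peaks. The distal peak 15.8 kb upstream of *Trp53* has the largest change at <0.1% O2, 1.26.

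By scaled pileup more of the distal peaks rose than fell. Of the 20, 2 fell and 7 rose at 1% O2, where 18.8% of all 15473 ranked peaks with no start site nearby fell and 19.2% rose. At <0.1% O2 none fell and 10 rose, against 11.8% and 31.9% of all such peaks. At an unadjusted p under 0.05 in limma the count of falls at <0.1% O2 was likewise 0, and 1 passed after a trend with GC content was subtracted. The median log2 change of the 20 was 0.23 at 1% O2 and 0.43 at <0.1% O2, beside 0.0 and 0.17 over all distal peaks. The 10 that rose at <0.1% O2 lay at *Trp53* (1), *Mdm2* (1), *Btg2* (4), *Bbc3* (2) and *Sesn2* (2), so neighbouring peaks of 3 genes made up 8 of them, and the locus of *Btg2* gave the most. At 1% O2, 1 fell and 5 rose with libraries scaled by genome coverage, beside 4.97% and 18.1% of all distal peaks. There 2 fell and 1 rose in the fold over local background, beside 3.57% and 5.52%. With libraries scaled by genome coverage 3 of the 20 rose at <0.1% O2 (13.7% of all distal peaks), and in the fold over local background 1 did (9.56%), the peak 15.8 kb upstream of *Trp53*. By the comprehensive GENCODE start sites that peak and the rising *Bbc3* intronic peak would be promoter peaks, of another gene and of *Bbc3*, and not distal peaks.

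The motif TGANTCA, the AP-1 site, was found within 300 bp centred on the summit in 7 of the 20 distal peaks (35.0%), near the 34.78% of all distal peaks, and in 1 of the 12 promoter peaks (8.33%), near the 9.3% of all promoter peaks. ACGTG, the core of the HIF site, was found in 3 of the 20 distal peaks (15%) and 1 of the 12 promoter peaks (8.33%), beside 15.96% and 25.67% of all such peaks. Both strands were searched, and these are matches of letters only.

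Between the hypoxic levels, 2 of the 12 member promoters were lower at <0.1% than at 1% O2, *Mdm2* and the inner promoter of *Sesn1*, and none was higher (1 at an unadjusted p under 0.05 in limma), where 18.5% of all promoter peaks were lower and 4.97% higher. Of the 20 distal peaks 4 were higher at <0.1% than at 1% O2 and none was lower (0 at an unadjusted p under 0.05 in limma), against 21.2% and 2.84% of all distal peaks. These 4 were the peak beyond *Ccng1* described above, the peak 13.7 kb beyond the *Btg2* start (0.49, adjusted p = 0.00359), the intronic peak of *Sesn1* (0.73, adjusted p = 0.0129) and the nearer upstream peak of *Sesn2* (0.51, adjusted p = 0.00174). The *Btg2* call was lost without <0.1% O2 replicate 1 (0.40), the *Sesn2* call without <0.1% O2 replicate 2 (0.39), and the *Sesn1* call without 1% O2 replicate 1 (0.63), without <0.1% O2 replicate 1 (0.71) and without <0.1% O2 replicate 2 (0.76). None of the 4 passed with libraries scaled by genome coverage. After the GC trend was subtracted the *Ccng1* (0.45, adjusted p = 0.0667), *Btg2* (0.30, adjusted p = 0.109) and *Sesn1* (0.53, adjusted p = 0.104) calls were lost.

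The fold over local background gave another order to the same promoters. Each peak was given a percentile rank by its fold among the 28432 peaks of its library, and since the smallest p of an exact permutation test between pairs of libraries is 0.33, ranks are described by whether the levels overlap. At 1% O2, 3 of the 12 promoters (the inner *Trp53* peak, *Mdm4* and *Cdkn1a*) ranked below normoxia in both libraries and 3 (the outer *Trp53* peak, *Gadd45a* and *Bbc3*) above it, where 29.6% and 21.6% of all promoter peaks did. At <0.1% O2, 7 ranked below and 2 above, against 38.2% and 21.3% of all promoter peaks. The 2 above were the outer *Trp53* peak, which went from percentiles of 31.8 and 33.2 to 40.7 and 50.1, and *Bbc3*. The *Mdm2* promoter went from 71.5 and 57.8 to 51.9 and 55.2, *Mdm4* from 74.9 and 74.6 to 64.8 and 56.9, *Btg2* from 60.8 and 53.7 to 48.5 and 49.1, and *Sesn2* from 12.8 and 15.2 to 10.4 and 9.98. At *Btg2*, *Sesn2* and the inner *Sesn1* promoter both <0.1% O2 libraries thus lay below normoxia by rank and above it by scaled pileup. The order depended on which peaks were ranked. With percentiles taken in the whole list of each library, 2 of the 12 lay below normoxia and 5 above it at 1% O2, beside 17.4% and 35.1% of all promoter peaks, and 4 lay below and 4 above at <0.1% O2, beside 28.7% and 29.9%. The 4 below at <0.1% O2 were the inner *Trp53* peak, *Mdm2*, *Mdm4* and the inner *Sesn1* peak, and the 4 above were the outer *Trp53* peak, *Bbc3*, *Cdkn1a* and *Gadd45a*. Of the 24 changes in mean rank, 13 moved by more than the SD between replicates, and 2 at 1% O2 (*Btg2* and inner *Sesn1*) and 3 at <0.1% O2 (*Cdkn1a*, *Gadd45a* and outer *Sesn1*) turned in sign.

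**Figure D3:**
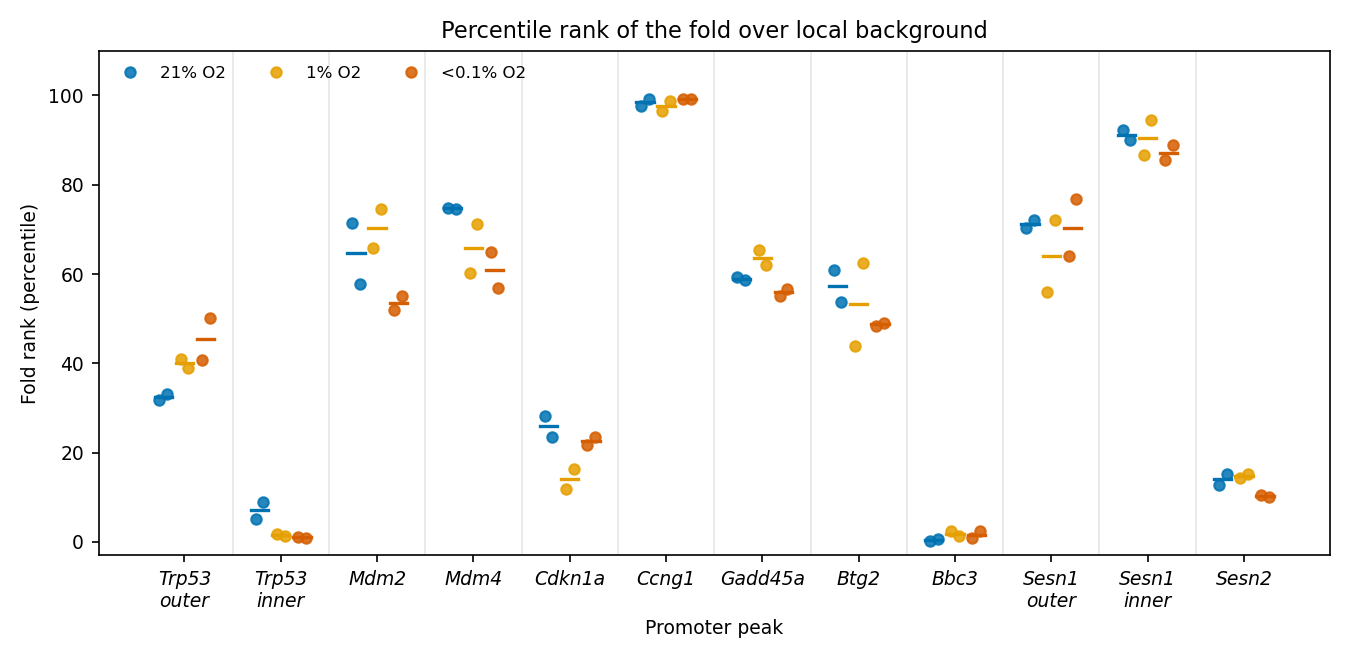
Fold rank (percentile among 28432 peaks) of the 12 member promoter peaks in each library; points are the 2 libraries of a level and bars their means. *Ccng1* stays near the top in all 6 libraries and *Bbc3* near the bottom. The inner *Trp53* peak also lies near the bottom in the 4 hypoxic libraries, at 0.83 to 1.73. The outer *Trp53* peak ranks higher in the 4 hypoxic libraries than in the 2 normoxic ones.

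By presence alone the loci gained regions at shares near those of all regions. Of the 55 regions, 38 were found in all 6 libraries and 6 in 1 library. Found in both 1% O2 libraries and in neither normoxic library were 5 regions, where 8.48% of all 52358 regions met the same rule, and 4 in both <0.1% O2 libraries and in neither normoxic one, where 8.02% did. No region was found in both normoxic libraries and in neither library of a hypoxic level, which 0.837% of all regions showed for 1% O2 and 1.19% for <0.1% O2. At these shares a count of 0 in 55 regions does not set the loci apart. The hypoxic libraries were deeper and had longer lists. With equal list lengths, 2 of 49 regions were gained and 1 was lost at each level, beside 4.68% and 4.02% of all regions at 1% O2 and 5.48% and 4.73% at <0.1% O2.

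The gained regions were mostly small. Of these, 3 lay at *Sesn1* and were found at both hypoxic levels. The one in an intron of *Cep57l1*, upstream of *Sesn1* (chr10:41795925-41796359), held 48 and 38 fragments at 1% O2 and 52 and 41 at <0.1% O2. Those in the *Sesn1* intron held 22 and 24 at 1% O2 and 31 and 29 at <0.1% O2 (chr10:41822066-41823084), and 33 and 35 and then 43 and 26 (chr10:41830633-41831242). The *Cdkn1a* region, in an intron of *Rab44* downstream (chr17:29120480-29121005), was also found at both levels, with 28 and 42 fragments at 1% O2 and 29 and 26 at <0.1% O2. The *Btg2* region, upstream of the gene (chr1:134096248-134096558), was found at 1% O2 only, with 80 and 66 fragments. These are unscaled fragments at summits, whose median over the peaks of a list was 52 to 69.

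**Figure D4:**
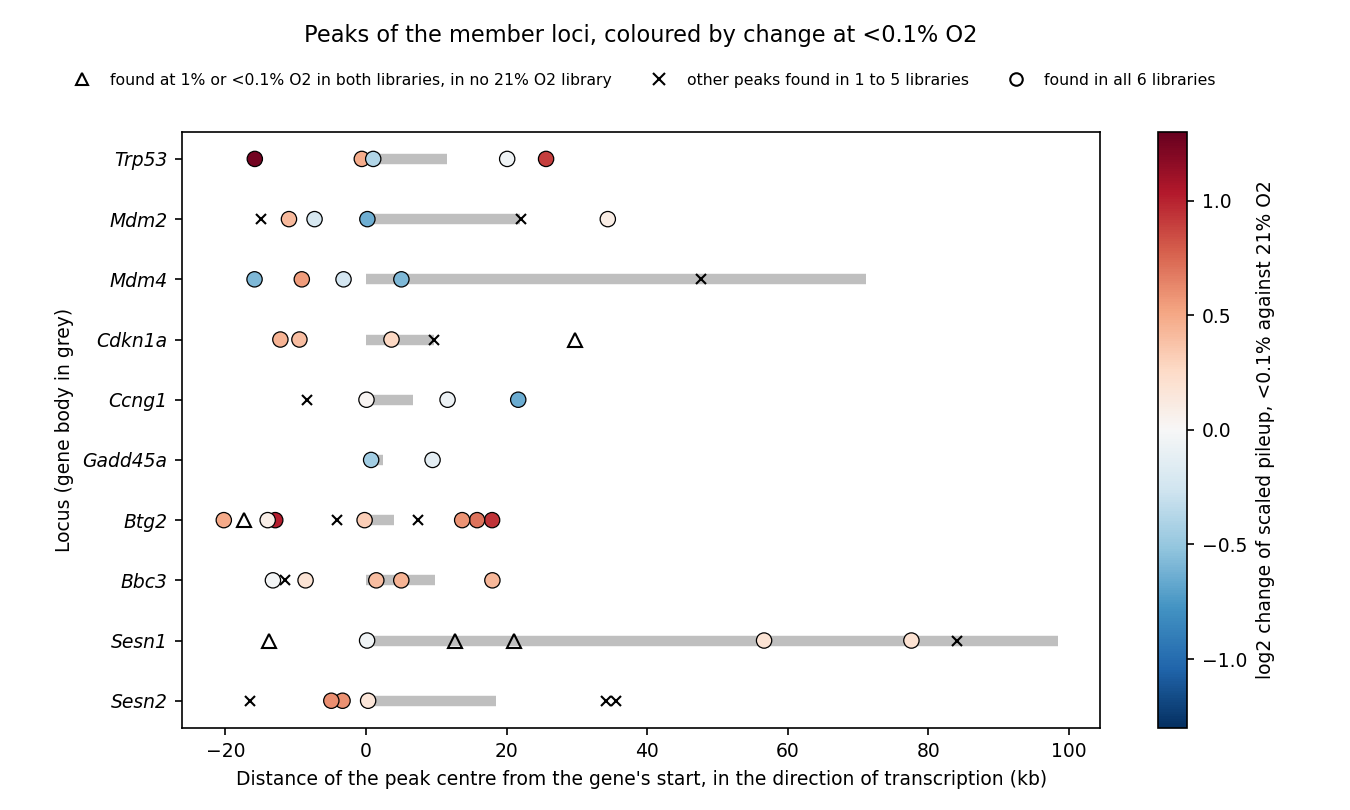
Position of every region of the 10 loci by distance of its centre from the outermost start of the gene (kb, in the direction of transcription), with the gene body in grey; circles are the 39 peaks ranked in all 6 libraries, coloured by log2 change of the scaled pileup at <0.1% against 21% O2, triangles the 5 regions gained at either hypoxic level, and crosses the other regions. Most circles at *Btg2* and *Bbc3* are red, while those at the *Mdm2*, *Mdm4* and *Gadd45a* promoters are blue.

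Around the 10 members, 51 other genes of the p53 pathway were examined by their promoter peaks, of which 44 had one in all 6 libraries that could be tested and 5 (*Trp63*, *Pmaip1*, *Tnfrsf10b*, *Perp* and *Eda2r*) had none in any library. At 1% O2, 11 of the 44 fell and 7 rose, and at <0.1% O2 20 fell and 2 rose, with median log2 changes of -0.13 and -0.19. The shares of all promoter peaks given above for the same calls were 22.0% and 12.9% at 1% O2 and 38.5% and 13.8% at <0.1% O2. After a trend with GC content was subtracted the split at <0.1% O2 was 11 and 10, beside 26.6% and 20.6% of all promoter peaks. With libraries scaled by genome coverage 2 fell and 4 rose at 1% O2, beside 3.18% and 9.03%. On that scale 15 fell and 0 rose at <0.1% O2, beside 34.6% and 2.89%. In the fold over local background none passed at 1% O2, where 1.67% of all promoter peaks fell and 1.66% rose. At <0.1% O2 4 fell and none rose in that fold, beside 9.55% and 3.07%. Without 1% O2 replicate 2, 5 fell and 2 rose at 1% O2, without 21% O2 replicate 1, 4 rose at 1% O2, and without either that library or <0.1% O2 replicate 2, 1 rose at <0.1% O2. The falls at <0.1% O2 numbered 12 of 17 among the regulators of p53, 3 of 7 among the apoptosis targets, 2 of 8 among the metabolic and other targets, 2 of 5 among the repair and nucleotide targets and 1 of 6 among the cell cycle targets. By fold over local background 4 of the 12 falls among the regulators (*Usp7*, *Rchy1*, *Hipk2* and *Atr*, named after their values were seen) passed and 0 of the 8 among the targets. In that fold 4 of the 17 regulators thus fell, beside 9.55% of all promoter peaks. With libraries scaled by genome coverage 8 of the 12 falls among the regulators passed, as did 8 of the 12 after the GC trend was subtracted. Among the targets, genome coverage kept 2 of 3 apoptosis, 2 of 2 metabolic and other, 2 of 2 repair and nucleotide and 1 of 1 cell cycle falls. After the GC trend was subtracted these were 1, 1, 1 and 0. The difference between regulators and targets was not tested.

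Of the regulators, *Chek1*, a DNA damage checkpoint kinase, fell at both levels, by 0.81 at 1% O2 and by 0.71 at <0.1% O2 (SE 0.13, adjusted p = 9.49e-06 and 3.51e-05). *Rchy1*, a ubiquitin ligase for p53 whose promoter peak is shared with *Thap6*, fell by 0.59 and by 0.87 (SE 0.11). *Rpl5*, a ribosomal protein that restrains *Mdm2*, had 146 and 122 fragments in normoxia, 95.3 and 99.8 at 1% O2 and 56.8 and 67.5 at <0.1% O2, and fell by 0.45 and by 1.11 (SE 0.15). *Ppm1d*, a phosphatase that switches p53 signalling off, went the other way, from 179 and 197 fragments to 253 and 254 at 1% O2 and 247 and 278 at <0.1% O2, and rose by 0.44 and 0.48 (SE 0.10). *Chek2*, another checkpoint kinase with a promoter shared with *Hscb*, was the only other regulator that rose at <0.1% O2, by 0.26 ± 0.10 (adjusted p = 0.0323). Neither rise at <0.1% O2 passed with libraries scaled by genome coverage (0.32 at *Ppm1d* and 0.097 at *Chek2*, adjusted p = 0.269 and 0.771) or in the fold over local background (0.085 and 0.014, adjusted p = 0.547 and 0.933). Among the targets, *Dram1*, an autophagy gene, fell by 0.45 and by 1.10 (SE 0.14), and *Sco2*, which is needed for cytochrome oxidase assembly, fell by 0.50 and by 0.77 (SE 0.11). *Ei24* and *Apaf1*, genes of the apoptosis list of which the latter shares its promoter with *Ikbip*, rose at 1% O2 by 0.54 ± 0.15 and 0.31 ± 0.09 and differed from normoxia by 0.09 and 0.12 at <0.1% O2, where they did not pass the test. At 1% O2 the falls of *Rchy1*, *Rpl5*, *Dram1* and *Sco2* and the rise of *Apaf1* did not pass with libraries scaled by genome coverage. Of the calls of these 9 genes at either level, only the fall of *Rchy1* at <0.1% O2 (-0.499, adjusted p = 0.00848) passed in the fold over local background.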

How the data were processed

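Peaks had been called in each library on its own. Per the labels, the authors aligned paired reads to mm10 with Bowtie2 2.2.5 and called peaks with MACS2 2.1.1.2, and they removed blacklisted regions. The deposited lists give each peak's fold over local background (a ratio) and its -log10 p-value and -log10 q-value. The fragment pileup at each summit was recovered from fold and p-value, as a whole number within 0.05 of a fragment, for 100% of peaks. Genome coverage was taken as the lowest background in a list. Lists hold no reads per library, so a read count test was not repeated.

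Consensus peaks joined stretches over 200 bp shared by both replicates of a condition. Pileups of the 28432 peaks present in all libraries were median-centred on the log2 scale and fitted over 3 group means with limma 3.58.1 (R 4.3.3), at an adjusted p threshold of 0.05. The fit was tested on simulated data. Start sites were those of the basic GENCODE M21 annotation, and sequences came from GRCm38.p6. The members and gene lists were chosen with earlier results of these data known. Named were all members with their promoter peaks, other peaks that passed at a hypoxic level or were gained or lost, and up to 3 other pathway genes per direction and level with the smallest adjusted p. Alternatives covered scaling, fold in place of pileup, overlap, peak and pileup filters, a replicate block, GC content, windows, list lengths, the peaks ranked and each replicate left out. Start sites of the comprehensive annotation, and the alternatives for the other pathway genes, were added after seeing the data. Replicate differences varied 1.01 to 1.11 times as much as counting noise, and the replicates were counted as separate libraries.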

Additional observations from a re-analysis of the deposited data

Results flagged for a closer look

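In 6 peaks of the member loci the response at <0.1% O2 differed from that at 1% O2 by limma's own contrast of the levels, 2 of 12 promoter peaks lower and 4 of 20 distal peaks higher, which are near the 18.5% and 21.2% of all such peaks and so do not set the loci apart. The *Mdm2* promoter (-0.62 on the log2 scale) and the inner promoter of *Sesn1* (-0.35) were lower at <0.1% than at 1% O2, the former level with normoxia at 1% O2 and the latter above it there. The distal peaks beyond *Ccng1* (0.88), 13.7 kb beyond the start of *Btg2* (0.49), in the intron of *Sesn1* (0.73) and 3.3 kb upstream of *Sesn2* (0.51) were higher at <0.1% than at 1% O2. None of the 6 passed in the fold over local background, where the contrasts were -0.22, -0.04, 0.25, 0.54, 0.51 and 0.47. After a trend with GC content was subtracted 4 of the 6 did not pass, the inner *Sesn1* promoter (-0.16, adjusted p = 0.349) and the *Ccng1* (0.45, adjusted p = 0.0667), *Btg2* (0.30, adjusted p = 0.109) and *Sesn1* (0.53, adjusted p = 0.104) distal peaks, while *Mdm2* (-0.35, adjusted p = 0.046) and the *Sesn2* peak (0.47, adjusted p = 0.00741) did. The part that the local background takes in these differences was not tested.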

How the results depend on the processing

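All values here are counts of member peaks that passed, or log2 changes of a peak, first at the named level. The falls at the *Mdm2*, *Mdm4* and *Gadd45a* promoters at <0.1% O2 and the rise 15.8 kb upstream of *Trp53* kept their direction under every alternative fit of the log2 change, but in the fold over local background the 3 falls shrank to -0.16, -0.19 and -0.044 and did not pass (adjusted p = 0.347, 0.216 and 0.798), and the 1 promoter called lower there was the inner *Trp53* peak (-0.62, adjusted p = 0.018). Scaling by genome coverage gave 0 promoters lower at 1% O2, 0 higher at <0.1% O2, and 1 distal peak lower at 1% O2 and 3 higher at <0.1% O2, and it turned the changes that had not passed at *Mdm2* (0.15), *Cdkn1a* (0.13) and the outer *Sesn1* promoter (0.13) at 1% O2 and at *Ccng1* (-0.14) at <0.1% O2. Quantile normalization gave 5 promoters higher at <0.1% O2 and turned *Mdm2* (0.077), *Cdkn1a* (0.018) and the outer *Sesn1* promoter (0.046) at 1% O2. The fold over local background in place of pileup gave 1 promoter lower and 0 higher at each level and 1 distal peak higher at each. In that setting the sign turned at 1% O2 at the promoters of *Mdm2* (0.064), *Ccng1* (-0.060), *Gadd45a* (0.054), *Btg2* (-0.063) and inner *Sesn1* (-0.017), at both *Trp53cor1* promoters (-0.013 and -0.017), the *Gm38140* promoter (-0.26), the *Btg2* peaks at 15.8 kb (-0.25) and 13.7 kb (-0.71) and the nearer *Sesn2* distal peak (-0.23). At <0.1% O2 it turned at the promoters of *Cdkn1a* (-0.071), *Hmmr* and *Nudcd2* (0.14), *Btg2* (-0.12), inner *Sesn1* (-0.058), *Sesn2* (-0.15) and *Gm38140* (-0.16), the *Btg2* peaks at 15.8 kb (-0.05) and 13.7 kb (-0.17) and the *Bbc3* peak 8.6 kb upstream (-0.086). The fold divides by a background that rose around *Btg2*, and the cause of the other changes was not tested.

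Subtracting a trend with GC content gave 6 promoters higher at <0.1% O2 and 1 distal peak lower at each level, and turned *Mdm2* (0.05), *Cdkn1a* (0.017) and *Ccng1* (-0.008) at 1% O2 and the outer *Sesn1* promoter (0.14) at <0.1% O2. The labels do not say whether the replicate numbers pair the libraries. Replicate differences of the groups correlated at -0.051, -0.013 and 0.008 over the ranked peaks. These differences varied 1.01 to 1.11 times as much as counting noise, which leaves little to correlate, so these values cannot show whether libraries were paired. A replicate block kept the member counts, at 2 promoters lower and 4 higher at 1% O2 and 3 and 3 at <0.1% O2, and each named peak kept its sign and call. With both the block and the GC trend the counts were 6, 1 and 1 again, the same 4 peaks turned (0.05, 0.017, -0.008 and 0.14), and the *Mdm2* contrast between the hypoxic levels no longer passed (-0.35, adjusted p = 0.0526).

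A promoter window of 500 bp gave 1 promoter lower at 1% O2. A locus window of 10 kb, which drops peaks by construction, gave 3 distal peaks higher at 1% O2 and 5 at <0.1% O2. Equal list lengths gave 2 regions gained and 1 lost at each level. Ranks within the whole list moved 13 of 24 fold ranks by more than the SD between replicates, and by these ranks *Gadd45a* lay above normoxia at <0.1% O2. Overlaps of 1 bp, -log10 q of at least 5, a mean pileup of at least 20 and the comprehensive start sites moved no count by over 1.5 times. With each library left out in turn, promoters lower at 1% O2 numbered 0 to 3 and higher 2 to 5, promoters higher at <0.1% O2 1 to 3, and distal peaks lower at 1% O2 1 to 2. The changes that turned in sign were -0.11 to 0.086 at *Mdm2* and -0.11 to 0.15 at *Ccng1* at 1% O2, -0.10 to 0.16 at *Ccng1* at <0.1% O2, -0.094 to 0.023 and -0.13 to 0.050 at the outer *Sesn1* promoter at the same levels, and -0.19 to 0.56 at the *Sesn1* intronic peak at <0.1% O2. The median summit of a library holds 52 to 69 fragments, which sets the precision of a single peak, and the lists give no peaks below the authors' q threshold of 0.001.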
